A study of Homo sapiens with 105 samples.

Results

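The genes described here are 9 genes of plasma apolipoproteins and of the first steps of lipoprotein making: APOA1, APOA2, APOA4, APOB, APOC3, APOE, APOH, MTTP and FABP1. They were chosen by name from the 63241 genes of a count table of RNA from Caco-2 cells, and all 9 were among the 19233 genes that passed the filter on low counts. Caco-2 is an established human line from a colorectal adenocarcinoma that takes on features of absorptive enterocytes as it grows. The study asked how such cells respond to bacterial extracellular vesicles (BEVs) and to the RNA in them. Cells were incubated with membrane vesicles of Lacticaseibacillus casei (L. casei MVs, LcMV), with those of Enterococcus faecalis (EfMV), with outer membrane vesicles of Proteus mirabilis (PmOMV) or with P. mirabilis LPS in the medium (LPSinc), each set against PBS. Others were transfected with vesicle RNA by Lipofectamine: 100 ng from L. casei (LcRNA), 5 ng from E. faecalis (EfRNA) or 2 ng from P. mirabilis (PmRNA), or with LPS (LPStrans). Controls of transfection held the same amounts of a negative control siRNA (ANC100, ANC5 and ANC2), and the LPS transfection was set against ANC2. Cells were taken at 10 and 24 h, and at 48 h for LcMV, LcRNA, ANC100 and PBS only, which gives 28 groups. By the labels LPS was at 0.2 ng per µl when added to the medium and at 1 ng per µl when transfected, while the paper's methods give the same figures per ml. No genotype differs between groups, since every library comes from the same line.

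Of the libraries of the series 66 are used here, and the other 39 come from lanes 2, 3 and 4 of flow cell 1. These were set aside in the main reading. At 48 h the 2 sets lay apart for 2 of the 9 genes. The share of all genes that did so is not given here, so this count has no background to be read against. MTTP lay between 4.15 and 10.6 CPM (read counts scaled by library size, with the scaling here fitted over all libraries) in the 8 libraries of 48 h set aside and between 15.6 and 28.2 CPM in the 8 libraries kept. APOA4 lay between 0.825 and 3.41 CPM in those set aside and between 4.67 and 8.97 CPM in those kept, so that for neither gene the sets overlapped. The ranges of the other 7 genes overlapped, as for APOB with 2100 to 2940 CPM in those set aside and 1870 to 4980 CPM in those kept. APOC3 overlapped only at the ends, with 44.7 to 126 CPM (median 48.8) set aside. In those kept it lay between 114 and 433 CPM (median 285). Among libraries set aside its medians at 10, 24 and 48 h were 61.9, 55.5 and 48.8 CPM. There the medians of APOA1, APOA2, MTTP and FABP1 were also lower at 48 h than at 24 h. Those of APOA4, APOB, APOE and APOH were higher. Total counts of the 66 libraries ran between 632659 and 8558755 with a median of 5563438. Of the 28 groups 20 kept 2 libraries, 6 kept 3 and 2 kept 4. Replicate numbers run over 2, 3, 4 and 5, and the labels do not say what a number stands for, so every p-value here refers to spread among libraries that may be technical replicates. PBS at 48 h kept replicates 2 and 5, whereas the other groups at 48 h kept 2 and 3. Markers of enterocytes and of Caco-2 epithelium were all detected (10 of 10), and their summed level ran between 4230 and 8600 CPM. Of 8 hepatocyte markers 4 (CYP3A4, CYP2E1, TAT and F9) stayed below 1 CPM on average. The summed level of all 8 still ran between 600 and 2520 CPM. Below 1 CPM on average were also 2 of 5 leukocyte markers (PTPRC and CD163) and 2 of 5 fibroblast markers (COL1A2 and DCN). The summed levels of these lists reached 228 CPM for leukocytes and 94.4 CPM for fibroblasts. All hepatocyte, leukocyte and fibroblast markers were detected. Of 4 endothelial markers 3 (VWF, CDH5 and KDR) stayed below 1 CPM, and KDR was not detected.

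Apolipoproteins are the protein coats of lipoproteins, the particles in which fat and cholesterol travel in blood and lymph. In the enterocyte, fatty acids taken up from the gut are bound in the cytosol by FABP1, rebuilt into triglyceride and loaded by MTTP, the microsomal triglyceride transfer protein, onto APOB as it enters the endoplasmic reticulum. The particle that results, the chylomicron, carries APOA1, APOA2, APOA4 and APOC3 as well, and liver and intestine are the main organs that make these proteins.

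APOA1, APOA4 and APOC3 lie within 16923 bases of each other on chromosome 11 (116820700 to 116837622, GRCh38), APOC3 on the plus strand and the other two on the minus strand. APOB (21001429 to 21044073) and FABP1 (88122982 to 88128062) lie on chromosome 2, APOA2 (161222292 to 161223631) on 1, MTTP (99564081 to 99623997) on 4, APOH (66212033 to 66256525) on 17 and APOE (44905791 to 44909393) on 19. Promoter windows of RefSeq (GRCh38.p14, 250 bases before to 50 after a start site) were matched by symbol for 6 of the 9 genes, in 9 windows in all. APOA1, APOB and APOC3 have no entry. The windows of 4 genes are given. FABP1 and APOH are shown because replicates 2 and 3 did not overlap for them at 10 h, and MTTP and APOA4 because they rose with time while staying low. Capitals mark matches of the motifs named after the sequences, on either strand, and each sequence runs 5′ to 3′ on the strand of its gene.
FABP1, chr2:88128013-88128312, minus strand: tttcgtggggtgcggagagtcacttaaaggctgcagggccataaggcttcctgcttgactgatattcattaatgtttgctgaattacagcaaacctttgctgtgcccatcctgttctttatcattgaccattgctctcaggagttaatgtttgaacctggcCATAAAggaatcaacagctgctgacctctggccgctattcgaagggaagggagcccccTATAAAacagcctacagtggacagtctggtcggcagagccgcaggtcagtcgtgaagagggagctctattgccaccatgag
APOH, chr17:66229366-66229665, minus strand: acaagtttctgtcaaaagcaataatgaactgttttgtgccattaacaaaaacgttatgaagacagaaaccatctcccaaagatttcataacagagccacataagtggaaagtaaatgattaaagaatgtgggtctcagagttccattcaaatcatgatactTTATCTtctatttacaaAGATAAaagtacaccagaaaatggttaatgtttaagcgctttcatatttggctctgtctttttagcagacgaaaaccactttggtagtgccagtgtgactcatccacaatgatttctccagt
MTTP, chr4:99574574-99574873, plus strand, the downstream of its 2 windows: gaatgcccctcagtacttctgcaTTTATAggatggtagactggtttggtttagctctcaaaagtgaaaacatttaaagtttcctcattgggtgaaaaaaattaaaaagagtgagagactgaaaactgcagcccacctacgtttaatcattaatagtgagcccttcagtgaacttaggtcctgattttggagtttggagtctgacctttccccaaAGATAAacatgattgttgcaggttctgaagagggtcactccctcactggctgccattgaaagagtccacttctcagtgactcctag
APOA4, chr11:116823255-116823554, minus strand: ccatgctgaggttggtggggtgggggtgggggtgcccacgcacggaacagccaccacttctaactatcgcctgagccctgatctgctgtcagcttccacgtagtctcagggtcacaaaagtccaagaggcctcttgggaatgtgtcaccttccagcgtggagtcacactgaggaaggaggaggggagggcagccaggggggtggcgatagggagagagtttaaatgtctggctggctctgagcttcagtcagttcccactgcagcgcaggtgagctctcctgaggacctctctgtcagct

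In the FABP1 window TATAAA (the TATA type) begins at -31 from the start site, and a TTTATG (the CDX type, a homeodomain factor of intestinal epithelium) lies on the other strand, beginning at position -89. The APOH window holds AGATAA (the GATA type) once on each strand, at -89 and at -72. In the MTTP window an AGATAA begins at -36 and a TATAAA on the other strand at -227. None of the motifs searched was in the APOA4 window, which says only that these letters are not there. Over all members AGATAA was found in 4 of 9 windows (APOA2, APOE, APOH and MTTP), against 10.3% of the 35116 windows in the table. TTTATG was in 3 of 9 (APOE, FABP1 and MTTP, here its upstream window), against 10.6%, and TATAAA in 2 of 9, against 11.5%. TGTTTAC (the FOXA type) was in the APOA2 window alone, against 3.42%. CAAAGTCCA and CAAAGNNCA of the HNF4 type, of which the second includes the first, and GTTAATNAT of the HNF1 type were in none of the 9, against 0.384%, 5.28% and 0.792% of all windows. These matches are descriptions of letters and were not tested.

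Per kilobase of exon APOA1, the main protein of high density lipoprotein, stood highest of the 9 genes. Its median over the 66 libraries was 1228 CPM per kilobase, and it ranked 24th of 19021 genes by its mean on that scale. APOE, a ligand through which remnant particles are taken up, came next with a median of 403 CPM per kilobase, then APOA2, the other abundant protein of high density lipoprotein, with 169.6, and APOB with 143.6. APOC3, an inhibitor of lipoprotein lipase, had a median of 66.7 CPM per kilobase, APOH, a phospholipid-binding plasma protein, 41.1, and FABP1 16.4. MTTP at 1.54 and APOA4, an enterocyte protein secreted on chylomicrons, at 1.18 CPM per kilobase were lowest. APOA1 stood above APOE and APOE above APOA2 in 66 of 66 libraries, and so did APOH over FABP1 and FABP1 over MTTP. Other neighbors changed places: APOA2 was above APOB in 55, APOB above APOC3 in 51, APOC3 above APOH in 65 and MTTP above APOA4 in 43 of the 66. At 48 h the order itself was another one, with APOC3 at a median of 349.6 CPM per kilobase in the third place, above APOB (264.6) and APOA2 (151.1).

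**Figure D1:**
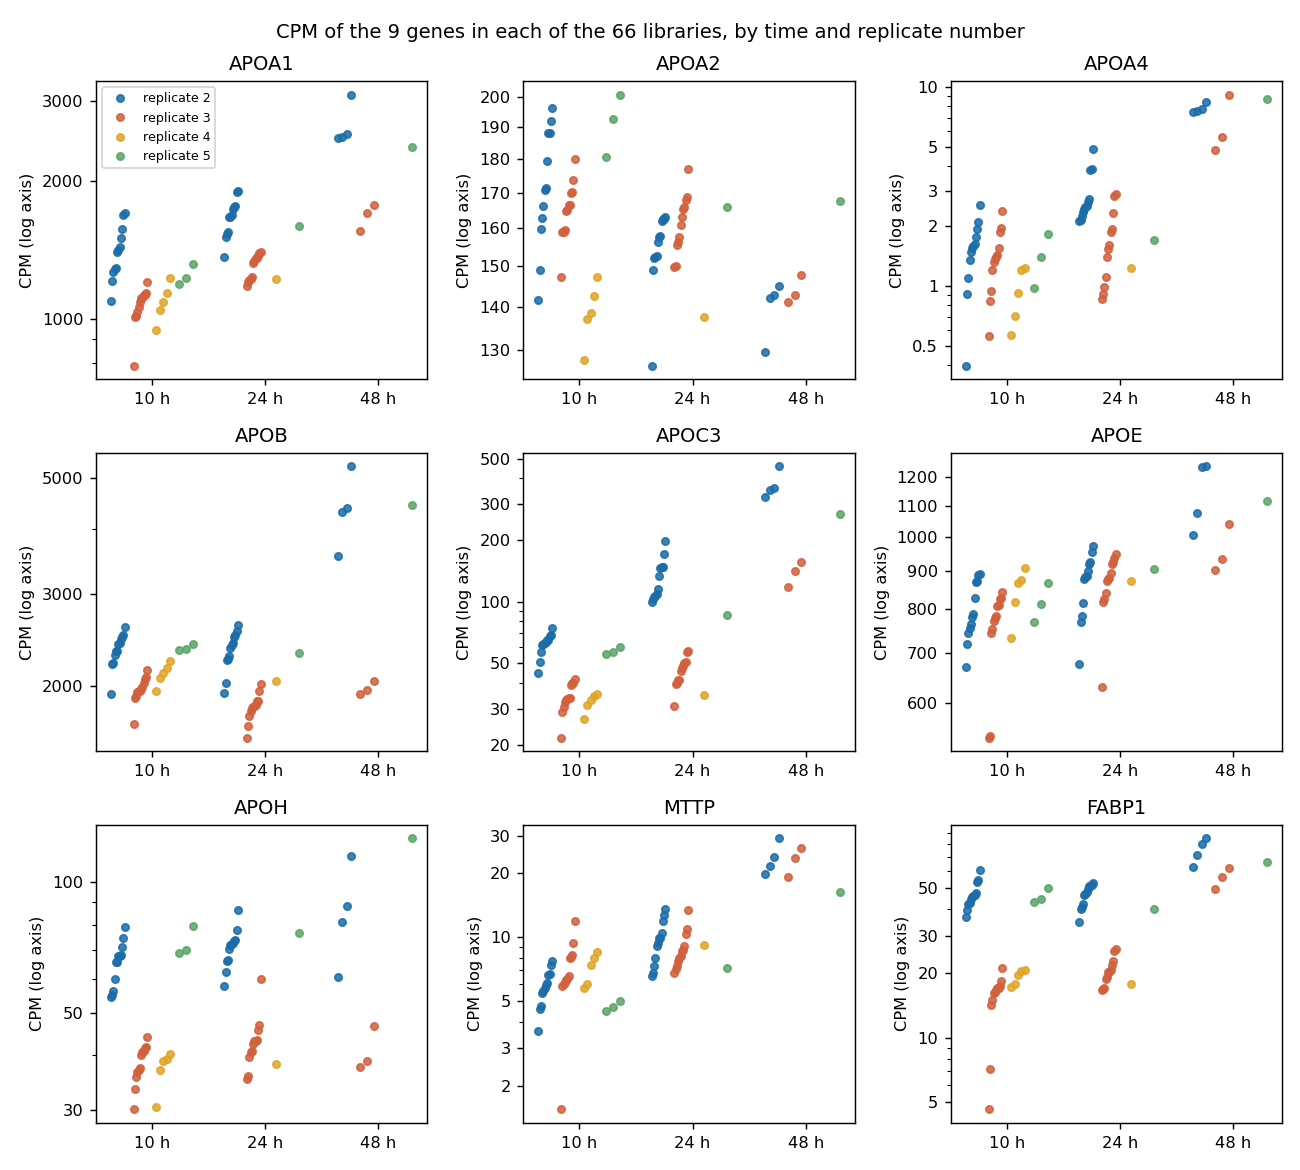
CPM (log axis) of each of the 9 genes in the 66 libraries, 1 point a library, in columns by time and colored by replicate number; the sideways place within a color has no meaning. APOC3, APOA1, APOA4 and MTTP climb from 10 to 48 h. At 10 h APOH and FABP1 lie in an upper band of replicates 2 and 5 and a lower band of replicates 3 and 4. At 24 h, with 1 library each of replicates 4 and 5, this holds for FABP1. For APOH the bands then overlap, with replicate 3 up to 59.8 CPM and replicate 2 from 57.8 CPM.

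In the 66 libraries the level of these genes differed between times, and most of them were higher later. In RNA of whole cultures, fewer cells of a type and less RNA per cell cannot be told apart. Between 10 and 24 h 6 of the 9 passed the test upward and 1 downward (edgeR quasi-likelihood test, mean over the 12 treatments). Of all genes 30.2% rose and 23.4% fell in that comparison, so that a pass by itself is common here. Between 24 and 48 h 8 rose and 1 fell (mean over the 4 treatments sampled at both times), against 23.2% and 19% of all genes. The median log2 fold change of the 9 was 0.16 in the first step and 0.60 in the second, and that of all genes tested was 0.03 and 0.04. The libraries of a time share a few replicate numbers and deviate together by number. The errors and p-values of these steps thus do not measure how a change with time varies between numbers.

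APOC3 had the largest early change. It lay at 21.7, 40.96 and 74.7 CPM (lowest, median and highest of 32 libraries) at 10 h, at 31.1, 71.7 and 198.0 CPM in 26 libraries at 24 h, and at 118.0, 297.5 and 457.8 CPM in 8 libraries at 48 h. The lower ends at 24 h reached into the range of 10 h, but libraries of the same treatment and replicate number were higher at 24 h in 25 of 25 pairs and at 48 h in 7 of 7. The log2 fold change was 0.79 ± 0.07 (SE, adjusted p = 5.53e-12) for 24 h and 1.48 ± 0.11 (adjusted p = 2.97e-14) for 48 h against 24 h.

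APOA4 and MTTP were the lowest of the 9 and rose more at the later step. APOA4 ran between 0.398 and 2.56 CPM (median 1.38) at 10 h, between 0.860 and 4.89 CPM (median 2.20) at 24 h, and between 4.82 and 9.13 CPM (median 7.66) at 48 h. Its log2 fold change was 0.65 ± 0.15 in the first and 1.77 ± 0.18 in the second step. A level of 1 CPM is fewer than 10 counts in any of these libraries, so single values of APOA4 are coarse. MTTP, without which APOB cannot be lipidated, ran between 1.55 and 11.95 CPM (median 6.13), then between 6.57 and 13.6 CPM (median 8.90), then between 16.4 and 29.3 CPM (median 22.7). No library at 48 h overlapped one at 24 h for MTTP, and its log2 fold changes were 0.49 ± 0.07 and 1.28 ± 0.10.

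APOB itself and FABP1 showed no early change that passed the test, and rose late. APOB had medians of 2152, 2021 and 3924 CPM at 10, 24 and 48 h, with a log2 fold change of -0.06 ± 0.04 (adjusted p = 0.242) for the first and 0.60 ± 0.08 (adjusted p = 5.96e-08) for the second step. The late rise was not even across replicate numbers. In replicate 2 APOB ran between 1937 and 2620 CPM in 12 libraries at 24 h and between 3544 and 5273 CPM in 4 at 48 h, while in replicate 3 it ran between 1591 and 2015 CPM in 12 libraries at 24 h and between 1927 and 2041 CPM in 3 at 48 h. The gap between replicates 3 and 2 was thus wider at 48 h than at 24 h, by -0.68 ± 0.06 on the log2 scale (adjusted p = 1.34e-17, block within each time, chosen after seeing the data), in a comparison that called 6.25% of all genes. FABP1 had medians of 20.9, 30.4 and 64.3 CPM, and its log2 fold change was 0.05 ± 0.08 in the first and 0.98 ± 0.12 in the second step.

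The remaining genes moved less. APOA1 had medians of 1166, 1393 and 2439 CPM and rose in both steps, by a log2 fold change of 0.27 ± 0.03 and of 0.52 ± 0.06, higher in 25 of 25 and in 7 of 7 pairs. APOE rose by 0.16 ± 0.04 and 0.24 ± 0.07 on the log2 scale, with medians of 798.4, 882.0 and 1058 CPM. APOA2 was the only 1 of the 9 to fall, by 0.10 and then by 0.14 on the log2 scale, lower in 19 of 25 and in 7 of 7 pairs, with medians of 166.3, 157.8 and 142.8 CPM. The late change of APOH rests on PBS. Its log2 fold change was 0.12 ± 0.03 and 0.15 ± 0.05 in the 2 steps, but only 2 of 7 pairs were higher at 48 h, and without the PBS libraries the second value was -0.04 ± 0.06 (adjusted p = 0.633), an alternative chosen after seeing the data. Without PBS the other 8 genes passed among the 66 libraries, but none of the 9 did once the 39 libraries set aside were put back, where edgeR called 2 genes in all and 5 of the 9 had an unadjusted p under 0.05. With lane as a covariate (0.11) or no filter (0.10) the APOH call was lost too. The APOH call was also lost without 1 library in 5 cases (replicate 2 of ANC100 or replicate 5 of PBS at 48 h, and replicate 2 of LcMV or of PBS or replicate 5 of LcRNA at 24 h), with values of 0.08 to 0.14.

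With the 39 libraries of lanes 2 to 4 put back, 4 of 9 genes passed in each step with the replicate block and 4 and 3 without it. In the 4 control groups alone the first step called 6, and APOH (log2 fold change 0.05, adjusted p = 0.496) was the one lost. With the 39 libraries put back the controls alone called 0 of the 9 (edgeR, 3 at an unadjusted p under 0.05). The summed level of the enterocyte markers had medians of 7580, 6640 and 4730 CPM at 10, 24 and 48 h, and that of hepatocyte markers 778, 1010 and 2040 CPM. That of leukocyte markers had medians of 166, 78.4 and 19.1 CPM. Its ranges overlapped widely, with 16.5 to 228 CPM at 10 h, 11.6 to 214 CPM at 24 h and 16.0 to 162 CPM at 48 h. Fibroblast markers had medians of 51.4, 63.2 and 73.7 CPM. The part of these lists in the changes was not tested.

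**Figure D2:**
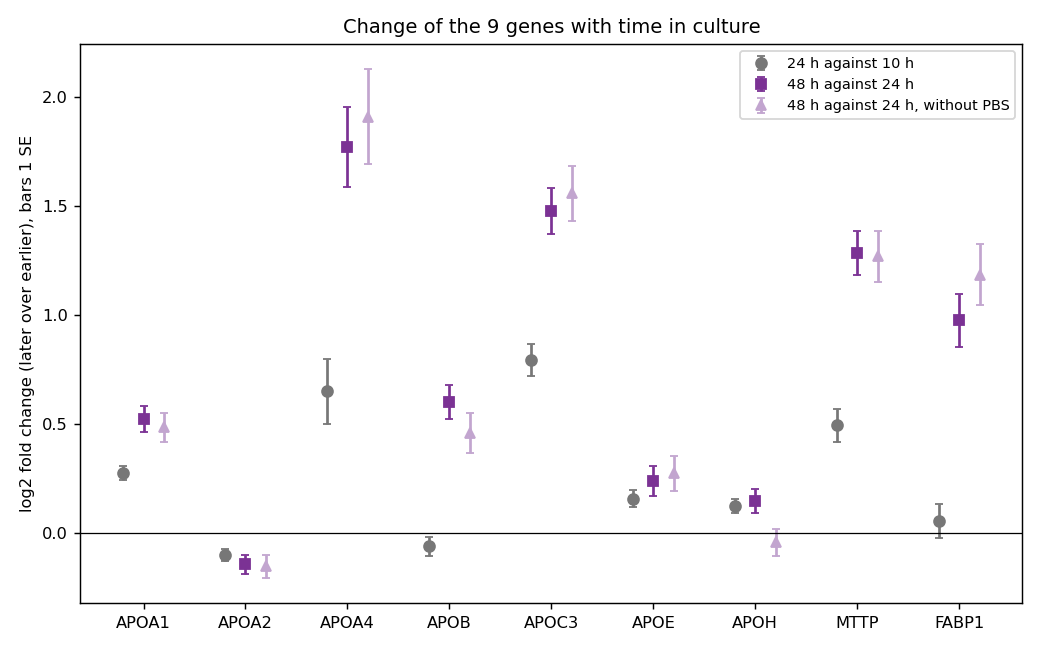
Log2 fold change of each gene (y axis, later over earlier time, bars 1 SE) for 24 h against 10 h, for 48 h against 24 h, and for 48 h against 24 h without PBS. APOA4, APOC3 and MTTP lie highest, APOA2 lies below 0 throughout, and APOH at 48 h lies at -0.04 once PBS is left out.

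Other genes of lipid handling were followed by lists chosen with earlier results of these data known. Their counts are to be read against the shares of all genes, 30.2% higher and 23.4% lower by 24 h and 23.2% higher and 19% lower by 48 h. In the list of fat uptake, binding and lipid synthesis, of 19 genes tested, 12 rose and 2 fell by 24 h, and 14 rose and 2 fell by 48 h, with medians of 0.17 and 0.40 on the log2 scale. MOGAT3, which makes diglyceride, rose by 0.97 ± 0.07 and SOAT2, which esterifies cholesterol, by 0.92 ± 0.07 at the later step. PLIN2, a coat protein of lipid droplets (0.66 ± 0.11), ACSL5, an acyl-CoA synthetase (0.66 ± 0.07), and the cholesterol exporter ABCA1 (0.50 ± 0.06) rose too. The fatty acid transporter SLC27A4 fell by 0.57 at the earlier step.
Of 14 genes of lipoprotein assembly and export other than MTTP 5 rose and 1 fell by 24 h, and 5 rose and 4 fell by 48 h. The largest was TM6SF2, a factor in loading lipid on lipoproteins, with 1.00 ± 0.19, while A1CF, a partner in APOB mRNA editing, rose by 0.34 ± 0.03 in the first and 0.13 ± 0.04 in the second step. SAR1A, a GTPase of vesicle budding, fell by 0.26.

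Of 8 further apolipoproteins tested 3 rose and 1 fell early, and 4 rose and 1 fell late. APOM rose by 0.65 ± 0.07 and APOC1 by 0.43 ± 0.07 at 48 h, and clusterin (CLU) fell by 0.26. Among 14 receptors, lipases and regulators 7 rose and 2 fell early, and 7 rose and 3 fell late. LRP1, a receptor of remnant particles, rose by 0.94 ± 0.06 at the later step. Of 28 transcription factors known to act on apolipoprotein genes 21 rose and 2 fell by 24 h. NR0B2 rose by 0.64 ± 0.18, CREB3L3 by 0.45 ± 0.08 and CEBPA by 0.36 ± 0.05 in that step. By 48 h 14 rose and 2 fell, led by PPARA (0.67 ± 0.05) and NR5A2 (0.62 ± 0.06). GATA6 fell by 0.38.

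Several of these genes also differed by replicate number. The tests set 1 number against 1 other, and their p-values refer to spread among libraries within a number. How far such numbers vary among themselves is not measured by them. Replicate 3 was below replicate 2 for 6 of the 9 genes (28.9% of all genes were higher and 32.6% lower in replicate 3), and none of the 9 was called higher. FABP1 ran between 4.64 and 21.1 CPM (median 16.5) in 12 libraries of replicate 3 and between 36.4 and 60.7 CPM (median 45.6) in 12 of replicate 2 at 10 h, with no overlap. The 2 lowest of these, at 4.64 and 7.17 CPM, are the shallowest libraries, with 632659 and 805396 counts. At 24 h FABP1 ran between 16.8 and 26.1 CPM in replicate 3 and between 34.7 and 52.8 CPM in replicate 2. It was lower in replicate 3 in 27 of 27 pairs of the same treatment and time, with a log2 fold change of -1.18 ± 0.08 (adjusted p = 2.67e-16).

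APOH lay at 30.0 to 44.2 CPM in replicate 3 and 54.5 to 79.0 CPM in replicate 2 at 10 h, and its log2 fold change was -0.77 ± 0.03 (adjusted p = 1.85e-36), lower in 27 of 27 pairs. At 24 h its ranges overlapped, with 35.3 to 59.8 CPM in replicate 3 and 57.8 to 86.3 CPM in replicate 2. APOC3 had a median of 46.8 CPM in replicate 3, against 124.8 CPM in replicate 2, at 24 h, and its log2 fold change over all times was -1.24 ± 0.07, again in 27 of 27 pairs. APOB (-0.39 ± 0.04, 27 of 27 pairs), APOA1 (-0.40 ± 0.03, 26 of 27) and APOA4 (-0.51 ± 0.13, 19 of 27) were also lower. APOE (-0.07 ± 0.04), APOA2 (0.01 ± 0.03) and MTTP (0.06 ± 0.07) did not pass the test.

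In the groups that kept all 4 numbers, replicate 5 lay by 2 and replicate 4 by 3 for FABP1 and APOH. FABP1 in ANC100 at 10 h was 45.7, 16.3, 17.3 and 50.2 CPM in replicates 2, 3, 4 and 5, and APOH was 74.7, 41.5, 40.4 and 79.4 CPM. In LcRNA at 10 h FABP1 was 42.7, 16.7, 20.7 and 44.5 CPM and APOH 65.8, 35.7, 38.8 and 68.7 CPM. APOB did not follow this, with 2215, 1891, 2113 and 2353 CPM in ANC100 and 2333, 1955, 2235 and 2343 CPM in LcRNA, where replicate 4 lay nearer to 2. For APOC3 the gap between replicates 3 and 2 widened early: it changed by -0.64 ± 0.11 on the log2 scale between 10 and 24 h (adjusted p = 6.81e-05, block within each time), in a comparison that called 13.9% of all genes. For FABP1 the gap narrowed between 24 and 48 h, by 0.72 ± 0.12 (adjusted p = 2.88e-05), to 49.6, 56.2 and 62.1 CPM in the 3 libraries of replicate 3, against 62.3 to 85.3 CPM in 4 of replicate 2. Time and replicate number together held between 51.4% (APOE) and 95.1% (APOC3) of the variance of log2 CPM over the 66 libraries, with 80.3% of that of APOH and 63.6% of that of FABP1 under replicate number alone and 70.2% of that of MTTP under time alone.

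**Figure D3:**
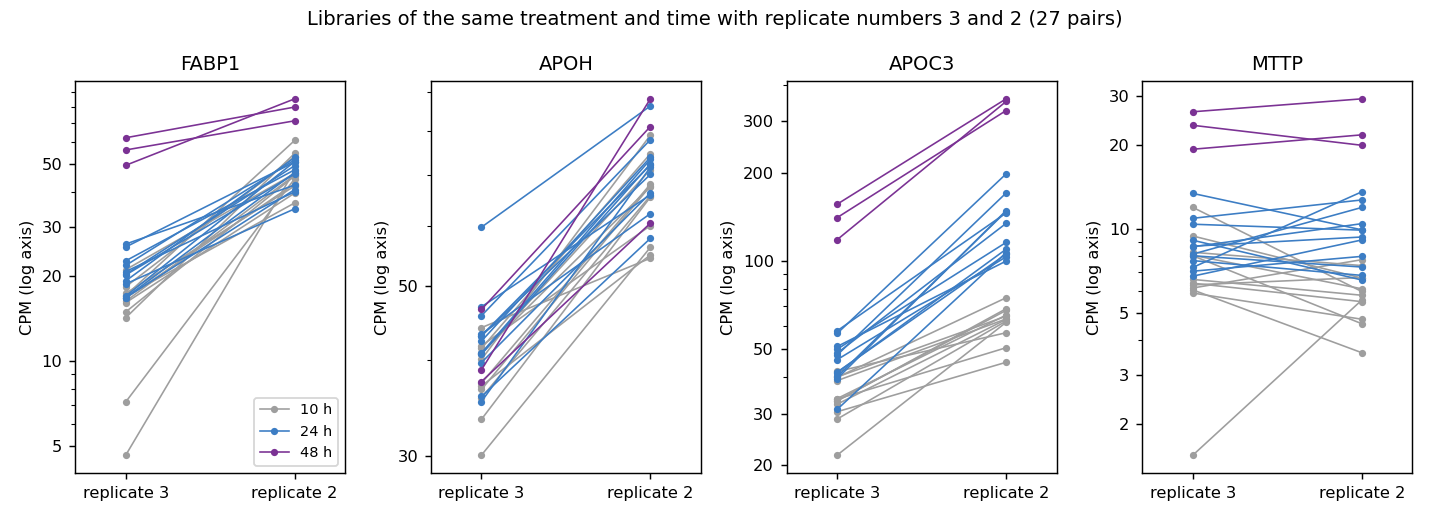
CPM (log axis) of FABP1, APOH, APOC3 and MTTP in libraries of replicate 3 (left) and replicate 2 (right) of the same treatment and time, joined by a line and colored by time, 27 pairs. Every line climbs to the right for FABP1, APOH and APOC3, while the lines of MTTP go both ways.

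Among the lists, 13 of 19 genes of fat uptake and synthesis were lower and 4 higher in replicate 3. FABP6, the ileal bile acid binding protein, had a log2 fold change of -1.66 ± 0.21, and NPC1L1, the intestinal cholesterol importer, of -1.36 ± 0.03. ABCA1 (-0.90 ± 0.04) and the apolipoprotein APOD (-0.90 ± 0.04) were lower as well. VLDLR, the receptor of very low density lipoprotein, was higher by 1.38 ± 0.09. Of 28 transcription factors 9 were higher and 13 lower, with RORA at 1.56 ± 0.06 and HNF4G at -1.19 ± 0.05.

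Of the 18 comparisons of a treatment (vesicles, vesicle RNA or LPS) with its control, 1 called any of the 9 genes. After 48 h with L. casei MVs APOB and APOH were lower than in PBS, 2 of the 9 genes in a comparison that called 2.7% of all genes. APOB was 3544 CPM in replicate 2 and 1927 CPM in replicate 3 of LcMV, against 5273 CPM in replicate 2 and 4453 CPM in replicate 5 of PBS. Its log2 fold change was -0.72 ± 0.17 (adjusted p = 0.0119). APOH was 60.5 and 37.5 CPM in the same libraries of LcMV, against 114.9 and 126.4 CPM in PBS, with a log2 fold change of -0.92 ± 0.11 (adjusted p = 2.86e-08). The groups did not overlap for either gene, but replicate 3 of LcMV stood there against replicate 5 of PBS. Over all treatments and times replicate 3 was below replicate 2 in 27 of 27 pairs for both genes. Within replicate 2, the only number the groups share, LcMV was lower for both, with 1 library on each side.

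The other 7 genes did not pass at 48 h. APOA1 was 2497 and 1554 CPM in LcMV, against 3102 and 2382 CPM in PBS (-0.33 ± 0.12, adjusted p = 0.142), and FABP1 was 85.3 and 49.6 CPM, against 62.3 and 66.3 CPM (0.62 ± 0.23, adjusted p = 0.153). Values of APOC3 (-0.35 ± 0.20), APOA4 (-0.22 ± 0.33), APOA2 (-0.14 ± 0.09), APOE (-0.04 ± 0.15) and MTTP (0.20 ± 0.19) lay nearer to 0 for their error. Of the lists CIDEB, MIA2 and A1CF of assembly and export (-0.40 ± 0.11, -0.38 ± 0.11 and -0.35 ± 0.09) and ABCA1 and DGAT2 (-0.57 ± 0.13 and -0.47 ± 0.10) were lower. LRP8 (1.19 ± 0.29), CEBPB (0.99 ± 0.22) and PPARGC1B (0.80 ± 0.17) were higher.

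PBS stood apart at 48 h from the other groups too. APOH was 81.1 and 46.7 CPM in LcRNA and 88.1 and 38.9 CPM in ANC100 (replicates 2 and 3), so that both PBS libraries lay above every other library. APOB was 4304 and 2041 CPM in LcRNA and 4384 and 1966 CPM in ANC100. Set against PBS, the siRNA control itself was lower for APOH at 48 h (-0.57 ± 0.11, adjusted p = 0.00232), in a comparison that called 0.25% of all genes, and APOB was at -0.52 ± 0.17 (adjusted p = 0.193). The APOH call was lost without replicate 3 of ANC100 (-0.41) or replicate 2 of PBS (-0.61), and without replicate 2 of ANC100 APOB (-0.98) and FABP1 (1.22) passed too. DESeq2 called APOH (-0.57), APOB (-0.52) and FABP1 (0.84). L. casei MVs against ANC100, a control that received siRNA and lipid, called none of the 9 genes and 0.0156% of all. APOH was then at -0.36 (adjusted p = 0.46) and APOB at -0.20 (adjusted p = 0.891), with 2 of the 9 and 1195 of all genes at an unadjusted p under 0.05. Without replicate 3 of ANC100 APOH passed (-0.52, adjusted p = 0.0224). Since PBS has replicate 5 in place of 3 at 48 h, replicate number and PBS cannot be fully told apart there. With a block within each time, which leaves replicate 5 of PBS no weight, the LcMV values against PBS were -0.49 ± 0.08 for APOB and -0.84 ± 0.12 for APOH, both called. Without replicate 3 of LcMV or without replicate 2 of PBS the value of APOB was -0.49 and -0.61 and no longer passed, while APOH passed without any 1 of the 4 libraries. Neither passed once the 39 libraries set aside were put back (-0.46 and -0.62).

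The LcMV value of APOH at 48 h differed from that at 24 h by -0.83 ± 0.16 on the log2 scale (interaction, adjusted p = 0.00935), and it was the only 1 of the 9 called in the 10 tests of a change with time. With the 39 libraries put back it was -0.21 ± 0.38 and edgeR called 0 genes, with 0 members at an unadjusted p under 0.05. It was also lost with no block (-1.20 ± 0.68) and in replicates 2 and 3 alone (-0.78 ± 0.17, adjusted p = 0.16), and DESeq2 gave it no adjusted p. At 24 h APOH was 66.3 and 39.7 CPM in LcMV, against 65.95 and 47.02 CPM in PBS. That test called 0.0208% of all genes, that of PmOMV at 24 h against 10 h 0.0312%, and the other 8 called 0 genes.

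**Figure D4:**
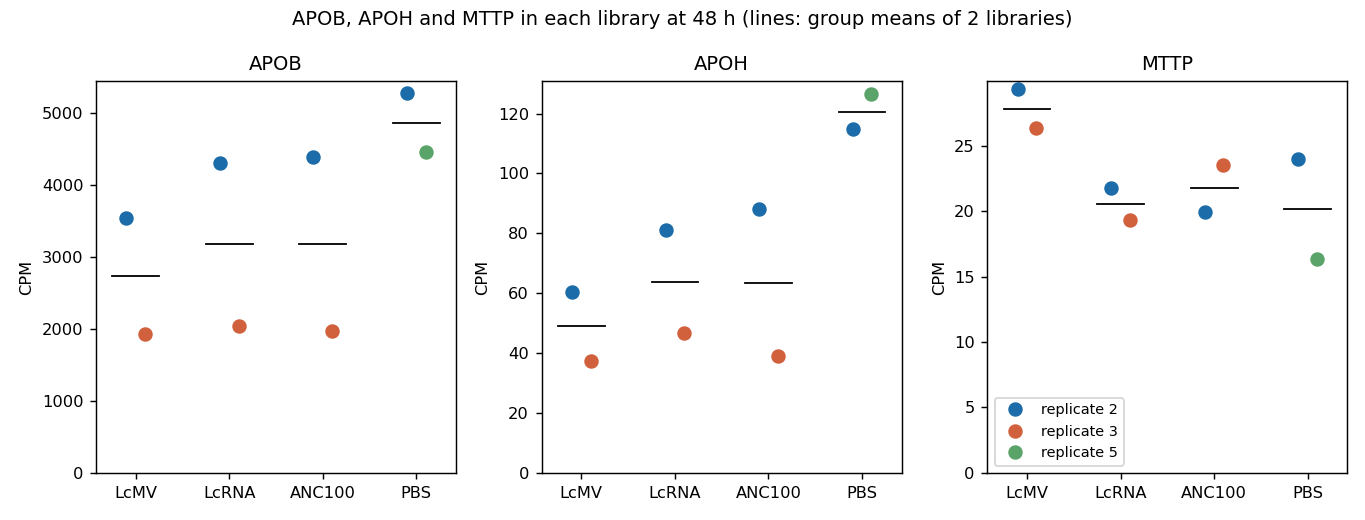
CPM of APOB, APOH and MTTP in the 8 libraries at 48 h by treatment (x axis), colored by replicate number, lines at the mean of 2 libraries. Both PBS libraries (114.9 and 126.4 CPM) lie above all others for APOH, and LcMV has the lowest replicate 2 library for APOB (3544 CPM) and APOH (60.5 CPM).

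No other comparison with a control called any of the 9 genes. Those comparisons called few genes of any kind: PmOMV 1.09% at 10 h and 0.109% at 24 h, LcMV 0.0468% at 10 h and 0.0052% at 24 h, and 0% for the remaining 13 (edgeR, adjusted p under 0.05), where DESeq2 called 0 genes too. At an unadjusted p under 0.05 stood between 0 and 4 of the 9 members a comparison, with 4 in LcMV at 48 h and 3 in PmRNA at each of 10 and 24 h, and between 450 and 3113 of all genes. With P. mirabilis OMVs 8 of the 9 values at 10 h were below 0, with FABP1 at 0.06. The share of all genes below 0 is not given here. With 1 library left out APOH, APOA1, APOE and APOA2 reached up to 0.07, 0.02, 0.0003 and 0.15, while APOB, APOA4, APOC3 and MTTP stayed below 0. The medians of the other gene lists lay between -0.12 and -0.04 there, except receptors, lipases and regulators (0.02). APOB was 1933, 1692 and 1951 CPM in replicates 2, 3 and 4 of PmOMV, against 2476 and 1989 CPM in replicates 2 and 3 of PBS (-0.27, adjusted p = 0.51), and passed with a block within each time (-0.27 ± 0.06, adjusted p = 0.00174), as it did at 24 h (-0.28 ± 0.07, adjusted p = 0.0157). The selection rule of the study's methods (an absolute log2 fold change over 1 and an absolute Cohen's d over 0.8, all libraries) took 1.44% of genes over the 18 comparisons and none of the 9.

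Against LPS given by the same route, the OMVs stood lower for 1 gene. APOA1 was 1093, 1035 and 944 CPM in replicates 2, 3 and 4 of PmOMV at 10 h, against 1707 and 1200 CPM in replicates 2 and 3 of LPSinc, without overlap. In replicates 2 and 3 of PBS it was 1206 and 1124 CPM. Against PBS its log2 fold change was -0.15 ± 0.11 (adjusted p = 0.676) for PmOMV and 0.29 ± 0.12 for LPSinc, neither called. Against LPSinc the value of PmOMV was -0.44 ± 0.11 (adjusted p = 0.0169), in a comparison that called 3.15% of all genes. All 9 values were below 0, as were the medians of the other gene lists (-0.255 to -0.0795), and the share of all genes below 0 is not given here. The call was lost without replicate 2 or 3 of LPSinc or replicate 2 of PmOMV (-0.38, -0.49 and -0.35), and without replicate 3 of PmOMV APOH (-0.41) passed as well. It was also lost with the 39 libraries put back (-0.27 with and -0.29 without the block), with no block among the 66 (-0.51) and in replicates 2 and 3 alone (-0.41). With a block within each time APOB (-0.29 ± 0.06), APOH (-0.31 ± 0.09), APOC3 (-0.59 ± 0.16) and MTTP (-0.65 ± 0.22) passed as well. Of 19 genes of fat uptake and synthesis 5 were lower, among them ABCA1 (-0.79 ± 0.13) and SOAT2 (-0.89 ± 0.15), and 1, SLC27A4 (0.50 ± 0.11), was higher. Of 28 transcription factors 3 were lower, among them RXRA (-0.47 ± 0.08) and HNF4A (-0.32 ± 0.07), and 1 gene was lower in each of the other 3 lists. Against PBS at 10 h PmOMV had 3 genes of fat uptake lower (ABCA1, NPC1L1 and DGAT1 at -0.67, -0.42 and -0.37), SLC27A4 higher (0.47) and RXRA lower (-0.40). At 24 h, where 0.151% of all genes were called, and for PmRNA against LPStrans at both times, where 0% were, no member passed. DESeq2 called 0 and 11 genes in the comparisons of PmRNA at 10 and 24 h, none of them a member, and 915 and 1506 genes had an unadjusted p under 0.05 in edgeR.

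Of the siRNA controls against PBS no value of the 9 genes passed at 10 or 24 h, where edgeR called 0% of genes and DESeq2 35 and 0, with 1401 and 1215 genes, 0 and 1 of them members, at an unadjusted p under 0.05 in edgeR. The value nearest to a call was that of APOC3 at 24 h (-0.62, adjusted p = 0.455), which passed with a block within each time (-0.63 ± 0.12, adjusted p = 0.0207).

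**Figure D5:**
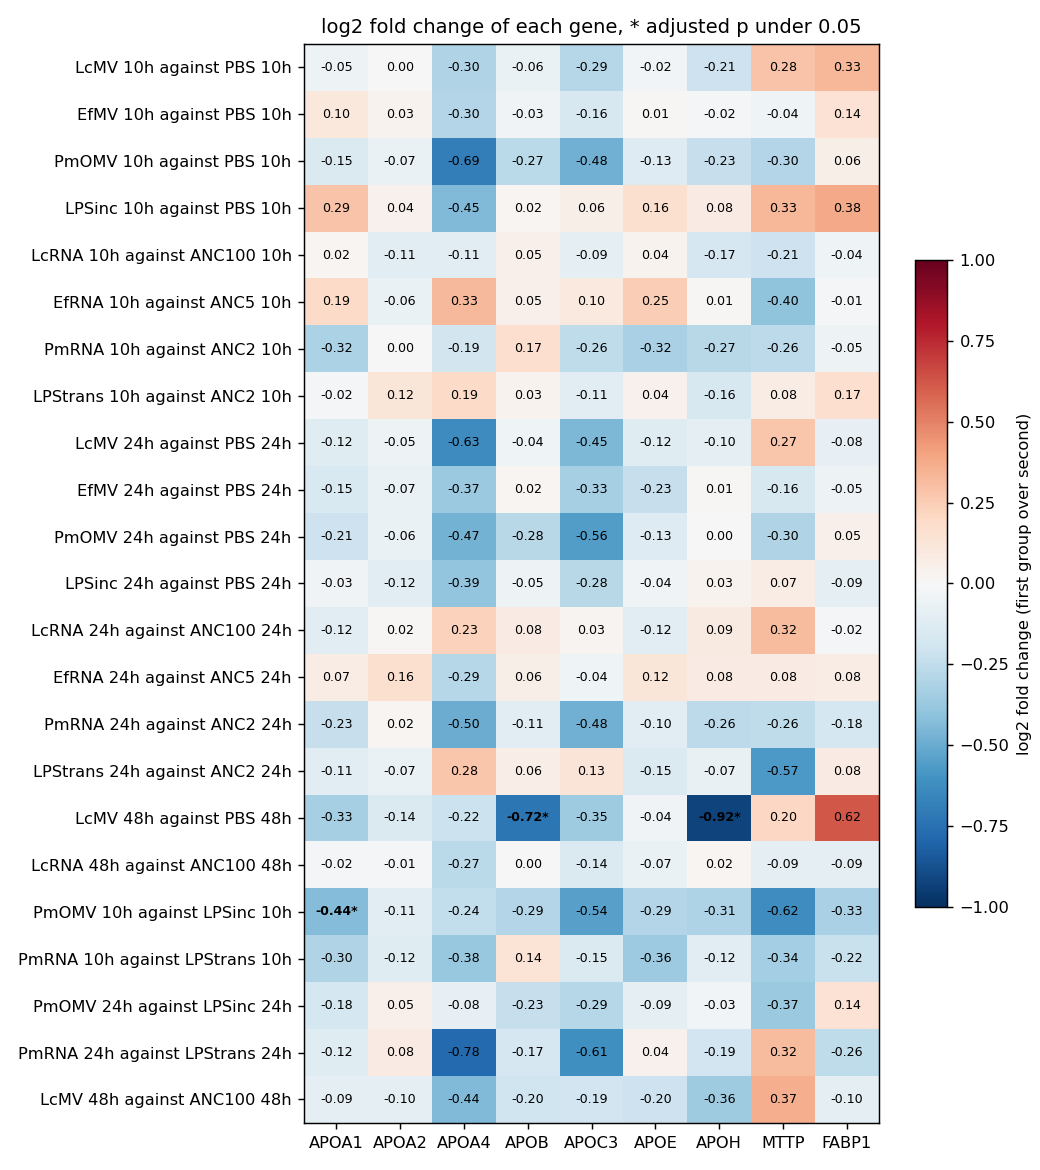
Log2 fold change of the 9 genes (columns) in 23 comparisons (rows, first group over second), blue below and red above 0, with a star where the adjusted p is under 0.05. Stars stand at APOB (-0.72) and APOH (-0.92) in LcMV against PBS at 48 h and at APOA1 (-0.44) in PmOMV against LPSinc at 10 h.

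The genes most like each member over the 66 libraries were sought by Pearson r of log2 CPM among genes with a mean of at least 10 CPM. These points share libraries, time and replicate number, so the values are descriptions. The nearest to APOA1 was APOA1-AS (r = 0.99), followed by SLC39A5 (0.96) and APOC3 (0.95). APOA1-AS lies on the opposite strand and shares 123 of the 1096 exonic bases of APOA1. Its CPM was between 0.337 and 0.412 of that of APOA1 in every library. No strand setting is stated for the counting, so reads of the bases that the pair shares cannot be told apart. APOA4, MTTP and APOB also share part of their bases with genes on the opposite strand. These are 635 of 1471, 83 of 5123 and 169 of 14828 exonic bases. APOC3 was nearest to SLCO2B1, MYO1A (a brush border myosin) and ABCC3 (0.96 each). APOB was nearest to TPP1 (0.90), APOH to the fibrinogen chain FGB (0.93), APOD (0.92) and CFTR (0.91), and FABP1 to TRANK1 (0.93), C11orf24 (0.91) and the peptide transporter SLC15A1 (0.91). APOA4 was nearest to TXNIP (0.87), SCD (0.85) and GSN (0.85), MTTP to PAM (0.88), and APOE to ZFP36L2 (0.85) and CEBPA (0.84). APOA2 had no close companion, with XPO1 highest at 0.59. Among the members themselves APOA1 and APOC3 still had r = 0.68 and APOA1 and APOE 0.65 once the mean of each time and replicate number was taken off, while APOB and MTTP, the protein and its lipid loader, were at -0.0003.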

How the data were processed

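RNA of Caco-2 cells was depleted of rRNA and sequenced as paired ends, and the authors aligned reads with STAR to GRCh38 and counted them per gene with featureCounts (no strand setting is given in the sources used here). The deposited table holds raw counts of 63241 genes. Here the 66 libraries outside lanes 2, 3 and 4 of flow cell 1 were fitted together with edgeR 4.0.16 (R 4.3.3): filterByExpr by group, TMM scaling, 1 coefficient a group, the replicate number as an additive block, and robust quasi-likelihood F tests. P-values were adjusted by Benjamini-Hochberg over all 19233 genes of a comparison, with a threshold of 0.05, and the SE is the log2 fold change divided by the square root of F. The steps were also run on simulated counts with known changes. Those counts held no change of the replicate difference with time, and the outcome is not given here. Total counts ran between 632659 and 8558755.

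Same-numbered libraries deviated together over the 1500 most variable genes in the 22 comparisons that share at least 2 numbers (r of 0.46 to 0.88). The numbers were thus taken as pairs, from the sample titles. LcMV against PBS at 48 h shares replicate 2 only, so pairing could not be checked there. Alternatives were the 39 other libraries put back, no block, a block within each time, DESeq2 1.42.0, RLE scaling, no filter, the robust option off, lane as a covariate and each library left out. The members and lists were chosen with earlier results of these data known. All 9 members were named, and of each list up to 10 called genes with the largest changes could be. Some genes of the lists are not reported here by name.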

Additional observations from a re-analysis of the deposited data

Results flagged for a closer look

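APOE in LcRNA at 10 h stood out by a gap test within its group: replicate 3 was at 783 CPM, and the other 3 libraries lay between 867.6 and 873.2 CPM. Of 18 such tests, over groups of 4 libraries, about 1 in 20 would stand out by chance. The LcMV value of APOH differed between times, by -0.825 on the log2 scale (48 h minus 24 h, interaction test), a call lost with the 39 libraries put back, with no block and in replicates 2 and 3 alone. The difference of replicate 3 from replicate 2 changed with time for APOB, by -0.108 between 10 and 24 h and by -0.676 between 24 and 48 h on the log2 scale, for APOC3 by -0.639 between 10 and 24 h, and for FABP1 by 0.717 between 24 and 48 h. The causes were not tested.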

How the results depend on the processing

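Of the 9 genes, 2 passed over the 18 treatment comparisons, 1 over the 4 with LPS, 7 for 24 h against 10 h, 9 for 48 h against 24 h, 6 for replicate 3 against 2, and 1 for siRNA against PBS. With the 39 other libraries put back and the replicate block kept these counts were 0, 0, 4 and 4 for the first 4 and 0 for siRNA, and without the block 0, 0, 4, 3 and 0. Without the replicate block among the 66 libraries the treatment, LPS and siRNA counts were 0, 0 and 0, and the time counts 5 and 6. With the replicate block within each time they were 4, 5 and 3. Lane as a covariate gave 3 for LPS, and DESeq2 gave 3 for siRNA. Replicates 2 and 3 alone, an alternative chosen after seeing the data, gave 1, 0 and 0 for treatment, LPS and siRNA. Leaving out each library gave 1 to 2 for treatment, 0 to 2 for LPS, 0 to 3 for siRNA, 0 to 1 for L. casei MVs against ANC100, 8 to 9 for 48 h against 24 h, 7 for 24 h against 10 h and 6 for the replicates. The selection rule of the study's methods took 0. RLE scaling and the robust option off lost none of these calls. Of the called values APOH for 48 h against 24 h changed sign, to -0.04 without PBS. That call was also lost with no filter and with lane as a covariate, the APOE call at 48 h with no filter, and the APOE call at 24 h with the block within each time. The causes of these shifts were not tested. Most groups hold 2 libraries, and APOA4 and MTTP lay at a few CPM, which limits their precision.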
